A study of Homo sapiens with 6 samples.

Results

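The mitochondrial genome gave 281 of the 162518 entries in 6 ATAC-seq peak lists, and these are every entry listed on chrM, taken one by one without merging. Each list held between 44 and 49 of them, where the selection rule named more than 100 per list. In ATAC-seq a transposase cuts accessible DNA and tags it for sequencing. The cells were CCRF-CEM, an established human T lymphoblast leukaemia line, either as the SLFN11-positive parent or with the SLFN11 gene knocked out. SLFN11 is a protein that acts on stressed replication forks and sensitises cells to agents that damage DNA. Both genotypes were kept for 2 h or 4 h in 100 nM camptothecin, a poison of topoisomerase I that locks the enzyme onto its DNA break, or were given only the solvent, DMSO. Each of these 6 groups had 1 library, so no treatment difference has a replicate spread or a test, and the knockout libraries share 1 code stem, so clone and genotype cannot be told apart.

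Mitochondrial DNA is a small circular molecule kept in many copies per cell. It is packed into nucleoids by TFAM, a protein that coats and bends the DNA. It carries no nucleosomes, and a transposase can cut it once the organelle is opened. Mitochondria that stay with the nuclei during lysis therefore add fragments to an ATAC-seq library. Cells also hold a mitochondrial topoisomerase I, TOP1MT, made from a nuclear gene. The mitochondrial genome has 37 genes in the RefSeq gene table, of which 13 code for proteins of the respiratory chain and ATP synthase, 22 for tRNAs and 2 for rRNAs. On the linear map they begin after a part of the non-coding control region with TRNF, RNR1, TRNV and RNR2, run through ND1, ND2, COX1, COX2, ATP8, ATP6, COX3, ND3, ND4L, ND4, ND5, ND6 and CYTB, and end with TRNT and TRNP before the rest of the control region. The control region holds the promoters and the origin of heavy-strand replication. Positions below are those of the lists, on hg19 and counted from 1. No annotation or sequence of that build was used here, and which version of the mitochondrial reference lies behind it is not given in the sources used here. Summits are therefore placed by position and not assigned to genes.

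The lists are named by the library code in their peak identifiers. CCRF_WT, CCRF_WT2 and CCRF_WT4 are parent DMSO, 2 h and 4 h by the codes in the sample titles, and CB45_KO, CB45_KO_2 and CB45_KO_4 are knockout DMSO, 2 h and 4 h. The sample each list is recorded under disagrees with its code in all 6 lists. In the record CCRF_WT2 is parent DMSO, CCRF_WT4 is 2 h and CCRF_WT is 4 h. In the same way CB45_KO_2 is recorded as knockout DMSO, CB45_KO_4 as 2 h and CB45_KO as 4 h. Treatment comparisons are given by code, with the recorded placement beside them. Comparisons of the genotypes over 3 libraries each do not depend on this.

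In every library the caller had listed the mitochondrial genome as 1 unbroken region with many summits. It ran from 67 to 16503 in CCRF_WT, 67 to 16500 in CCRF_WT2, 70 to 16492 in CCRF_WT4, 68 to 16505 in CB45_KO, 67 to 16505 in CB45_KO_2 and 62 to 16509 in CB45_KO_4. The covered length was therefore between 16423 and 16448 bases, with no uncovered stretch inside and the uncovered bases at the ends of the linear map. On other chromosomes the widest entry of a list was between 3207 and 3248 bp, and no region had more than 12 summits. The region had 48 summits in CCRF_WT, 48 in CCRF_WT2 and 49 in CCRF_WT4. In the knockout libraries it had 44 in CB45_KO, 45 in CB45_KO_2 and 47 in CB45_KO_4. These entries made up 0.261% of the list in CCRF_WT (Wilson 95% interval 0.197 to 0.346%), and between 0.142% and 0.184% in the other libraries, where the lists are longer. The interval treats the summits of 1 region as independent entries, which they are not. Neighbouring summits lay 299 to 345 bp apart at the median of a library. The widest step between summits was 911 bp, from 9743 to 10654 in CCRF_WT. The 3 knockout libraries had their widest steps at the same place, from between 9737 and 9762 to between 10614 and 10646. In CCRF_WT2 and CCRF_WT4 it was elsewhere, from 1345 to 2063 and from 9093 to 9822.

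Coverage at these summits was far above that of any other summit in the same list. The deposited fold and -log10 p of a summit together fix its pileup, the number of fragments or extended reads over it, and its background, the number expected there by the caller. The median pileup of the mitochondrial summits was 21904 in CCRF_WT, 17475 in CCRF_WT2, 16692 in CCRF_WT4, 19067 in CB45_KO, 20474 in CB45_KO_2 and 19253 in CB45_KO_4. CCRF_WT was the highest of the 6 and the other parent libraries were the lowest, so the knockout libraries lay between them. Rounding in the lists leaves these pileups uncertain by at most 0.712 fragments. The lowest mitochondrial summit of a library was between 1.93 and 2.53 times its highest summit on any other chromosome. The median summit elsewhere had a pileup between 18.0 and 31.0. More copies of mitochondrial DNA per cell and more mitochondria left with the nuclei cannot be told apart in these libraries.

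**Figure D1:**
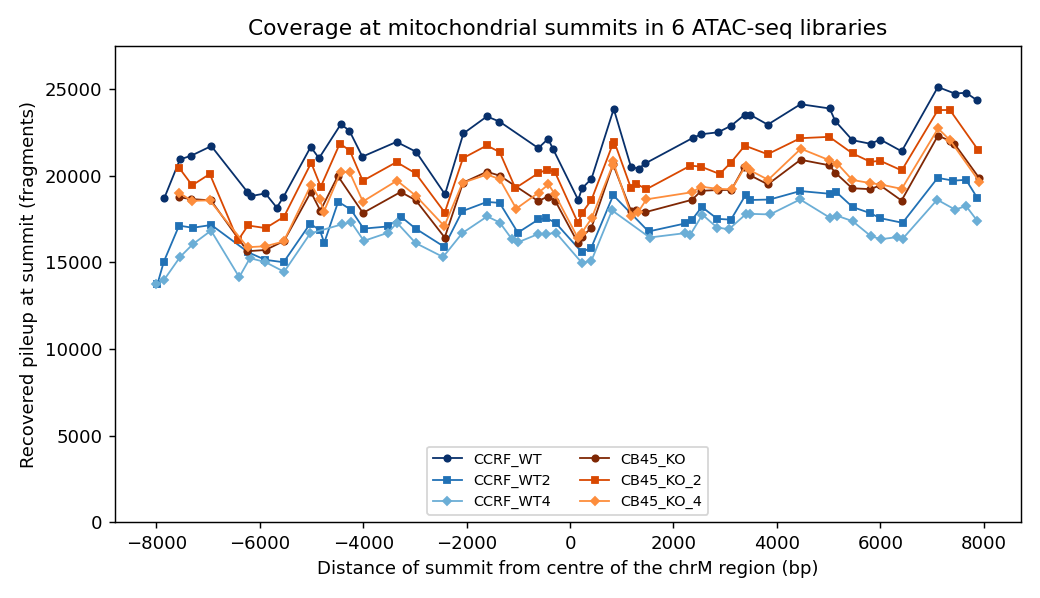
Recovered pileup (fragments) at each mitochondrial summit against its distance in bp from the centre of the called region, with 1 line per library. The lines keep nearly the same shape at different heights, with CCRF_WT highest (18167 to 25128) and CCRF_WT4 lowest (13742 to 18638).

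From summit to summit along the molecule the pileup varied little and in nearly the same way in all libraries. The lists give no pileup between summits or at the ends of the map, so coverage there is not described. The highest summit of a library had 1.36 to 1.46 times the pileup of its lowest. The highest stood at 15400 in CCRF_WT (25128), 15393 in CCRF_WT2 (19880), 15403 in CB45_KO (22324) and 15404 in CB45_KO_4 (22737). In CB45_KO_2 it was at 15633 (23803), and in CCRF_WT4 at 12731 (18638). The lowest lay near the start of the map, at 2612 in CCRF_WT (18167), 302 in CCRF_WT2 (13747), 280 in CCRF_WT4 (13742), 2046 in CB45_KO (15647), 1863 in CB45_KO_2 (16272) and 2047 in CB45_KO_4 (15878). The second highest summit of CCRF_WT4, at 15382, had nearly the same pileup as its highest (18623).

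Fold enrichment gave a different picture from pileup. The recovered background changed from summit to summit more than the pileup did. The deposited fold was lowest in the middle of the map in all 6 libraries. That minimum lay between 8436 and 8511 and ran from 1.19 in CCRF_WT4 to 1.32 in CB45_KO_4. The highest folds stood near the ends of the map. They were 2.82 at 16152 in CCRF_WT, 2.62 at 15943 in CCRF_WT2, 2.44 at 15942 in CCRF_WT4, 2.70 at 15719 in CB45_KO, 2.69 at 722 in CB45_KO_2 and 2.84 at 723 in CB45_KO_4. The background was lowest at the first summit of every library, from 6229 in CCRF_WT2 to 7665 in CCRF_WT. It was highest between 11180 and 11411, from 12842 in CB45_KO_4 to 15373 in CCRF_WT, and lower again at the last summit, from 7181 to 8655. The highest background of a library was 1.90 to 2.07 times its lowest, a wider range than the pileup had. Across the 44 to 49 summits of a library, Pearson's r between fold and background was between -0.94 and -0.90, and between fold and pileup between 0.01 and 0.48. Pileup and background were both recovered from the fold, so a correlation of either with fold is partly built in. Summits of 1 library also share reads and windows, so these correlations are descriptions.

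The background also followed how much of the molecule surrounds a summit. In a window of 10000 bp centred on a summit, a width chosen after seeing the data, the part inside the called region was all of it in the middle and fell to between 52.1% and 53.5% at the outermost summit. Pearson's r between that part and the background was between 0.98 and 0.99 in the 6 libraries. The window that the caller used is not given in the sources used here, and its part in the high folds near the ends was not tested.

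**Figure D2:**
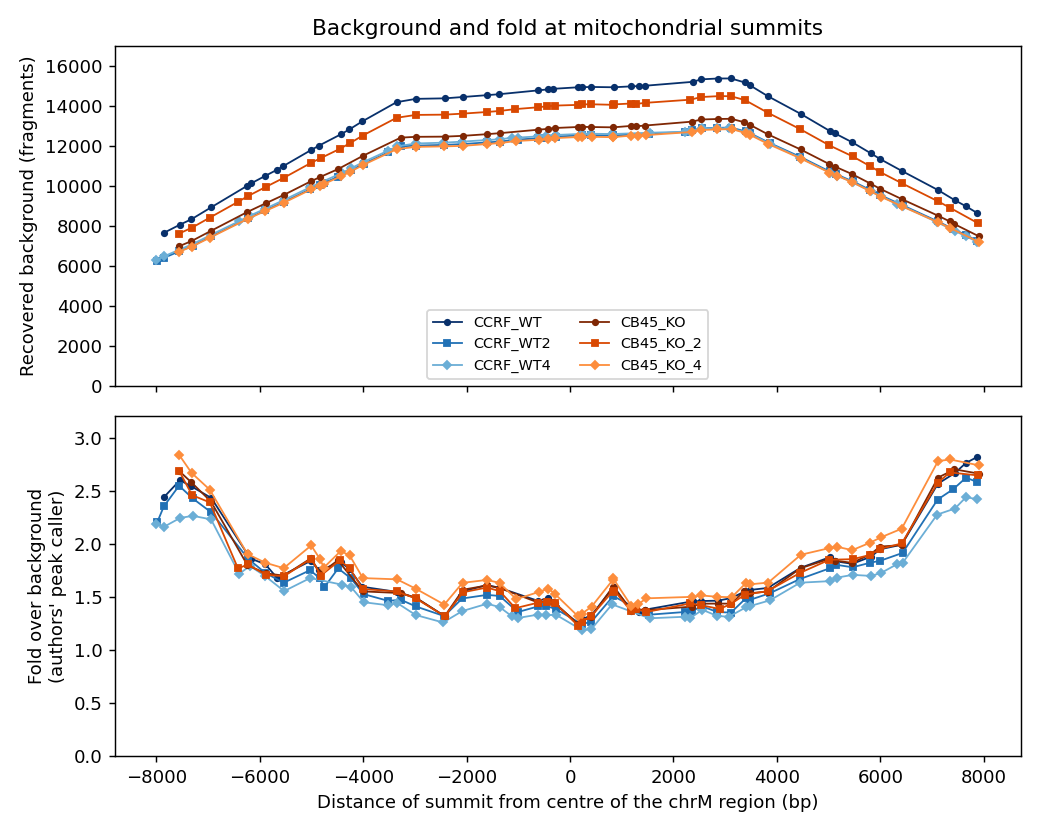
Recovered background (fragments, upper panel) and the deposited fold over background (lower panel) at each mitochondrial summit, against distance in bp from the centre of the region, with 1 line per library. Background rises from 6229 to 7665 at the first summit to 12842 to 15373 in the middle and falls again, and fold is lowest in the middle (1.19 to 1.32).

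Mitochondrial entries joined the lowest folds of a list with some of its strongest p-values. Their median fold was 1.65 in CCRF_WT, 1.56 in CCRF_WT2, 1.47 in CCRF_WT4, 1.59 in CB45_KO, 1.56 in CB45_KO_2 and 1.67 in CB45_KO_4. The median fold on other chromosomes was between 5.40 and 6.12, and only 2 to 22 entries there had a fold below the mitochondrial median of their list. The median -log10 p of the mitochondrial entries was between 505 in CCRF_WT4 and 984 in CCRF_WT, against 10.5 to 16.4 elsewhere. Between 21 and 49 other entries of a list passed that mitochondrial median. A fold near 1 in this part of the genome therefore rests on the pileups given above, and counting error is small beside them.

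The summits recurred at the same places from library to library. Summits at most 25 bp from a neighbour were linked across the 6 lists into 68 positions. All 6 libraries held 27 of them (39.7%), and 8 more were held by 5, 8 by 4, 3 by 3, 14 by 2 and 8 by 1. With the same linking, 2463 of 95282 positions on other chromosomes (2.58%) were held by all 6, where the median pileup is lower by the amounts given above. A position there also had to be called in all 6 lists, whereas the mitochondrial genome was a called region in each. The 2 shares therefore differ in calling as well as in summit place. Chains of neighbours made 13 mitochondrial positions wider than 25 bp, the widest 50 bp. With summits linked at 10 bp the number held by all 6 was 17.

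Of the shared positions, the 5 with the highest lowest fold lay near both ends of the map. At 16152 to 16202 the fold was 2.82, 2.58 and 2.42 in CCRF_WT, CCRF_WT2 and CCRF_WT4, and 2.66, 2.64 and 2.74 in CB45_KO, CB45_KO_2 and CB45_KO_4. At 15382 to 15404, in the same order, it was 2.57, 2.42 and 2.28, and 2.62, 2.58 and 2.78. The position at 16152 to 16202 joined parent summits at 16152 to 16164 with knockout summits at 16185 to 16202 through chained neighbours. The remaining 3 were neighbours at the start of the map, 721 to 741, 959 to 987 and 1315 to 1346, where the lowest fold over the libraries was 2.24, 2.26 and 2.23. CCRF_WT4 gave the lowest fold at all 5 of them. A summit position of low fold at 8509 to 8517 was also shared, with a lowest fold over the libraries of 1.19. Its pileups were 19276, 15598 and 14971 in CCRF_WT, CCRF_WT2 and CCRF_WT4 and 16457, 17829 and 16701 in CB45_KO, CB45_KO_2 and CB45_KO_4.

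Summits that separated the genotypes lay near the ends of the map. Of the 68 positions, 2 were held by all 3 parent libraries and no knockout library, against 0.336% of all positions in the lists, and 1 by all 3 knockout libraries and no parent library, against 0.413%. Most of all positions lie on other chromosomes, where pileups are lower and a region must also be called. These shares therefore differ in calling as well as in summit place. The first parent-only position was at 440 in CCRF_WT, 427 in CCRF_WT2 and 424 in CCRF_WT4, with pileups of 18738, 15051 and 13977. With summits linked at 10 bp, 440 was no longer joined to 427 and 424. CCRF_WT2 and CCRF_WT4 held a further summit at 302 and 280, chosen for mention after its values were seen. In the knockout libraries the first summit came at 731, 722 and 723. The other parent-only position was at 15942 in CCRF_WT, 15943 in CCRF_WT2 and 15942 in CCRF_WT4, with pileups of 24798, 19770 and 18251. The knockout-only position was at 15626 in CB45_KO, 15633 in CB45_KO_2 and 15638 in CB45_KO_4, with pileups of 22029, 23803 and 22045, and it was no longer separate when summits were linked at 100 bp. Within the shared position at 16152 to 16202, parent summits (16152 to 16164) and knockout summits (16185 to 16202) also lay apart. With summits linked at 10 bp these parent summits became a parent-only position, so the number of parent-only positions was still 2. The called region of every library spans all of these places, so a missing summit is a difference in where the coverage had local maxima and not a loss of coverage. With 3 libraries a side these counts carry no test.

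**Figure D3:**
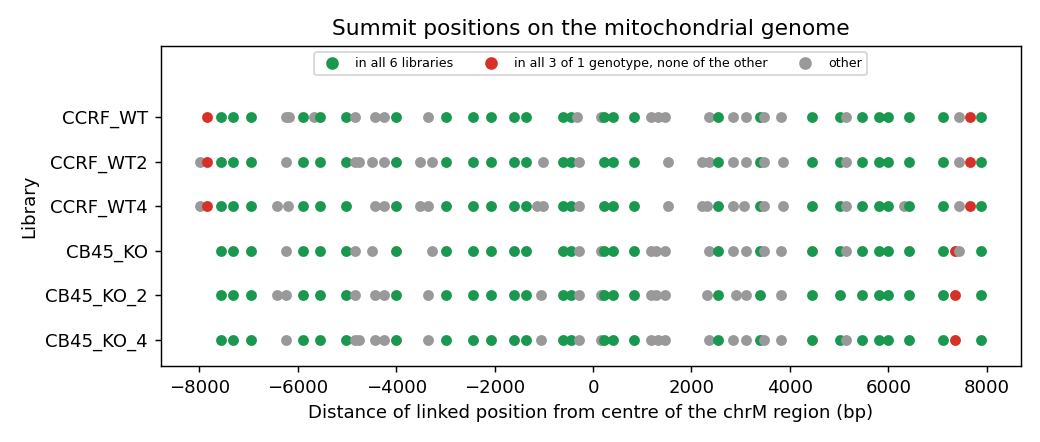
Linked summit positions in each library (rows) against distance in bp from the centre of the region. Green points are the 27 positions in all 6 libraries, red points the 3 positions in all libraries of 1 genotype and none of the other, and the red points lie near the ends of the map.

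How mitochondrial coverage changed with camptothecin was read from pileups at linked positions, each divided by the lowest background of its list, a level that rises with the number of reads and their extended length. By code, coverage was lower with camptothecin in the parent cells. The median log2 ratio to CCRF_WT was -0.40 in CCRF_WT2 over 38 positions (range -0.47 to -0.33) and -0.44 in CCRF_WT4 over 36 positions (-0.53 to -0.35). Counting error at 95% for the ratio at a single position of median pileup was 0.03, against 0.75 and 0.71 on other chromosomes. At least 1.2-fold lower were 38 of 38 and 36 of 36 positions, against 6.75% and 8.63% of all positions. In each pairwise comparison all positions means those of any chromosome with a summit in both libraries, here 7374 and 6988. No mitochondrial position was 1.2-fold higher, whereas 81.8% and 80.7% of all positions were. The limit of 1.2-fold was set after the values were seen, and on other chromosomes it lies within the counting error of a single position. On other chromosomes the same scaling gave median log2 ratios of 1.07 and 1.42, so there the summits of both libraries were higher than those of CCRF_WT. At linked summits and on this scale, CCRF_WT was thus the parent library with the highest mitochondrial and the lowest other pileups at the median. Coverage of other chromosomes outside such summits was not compared. In the record CCRF_WT is the 4 h library and CCRF_WT2 the DMSO library. Placed that way, mitochondrial coverage at 4 h was higher than in DMSO, with a median log2 ratio of 0.40, and at least 1.2-fold higher at 38 of 38 positions against 6.75% of all positions, with 81.8% of all positions lower. At 2 h as recorded the median was -0.03 over 41 positions, with 0 past 1.2-fold in either direction against 46.2% higher and 15.4% lower.

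In the knockout cells the libraries lay closer together. By code the median log2 ratio to CB45_KO was 0.00 in CB45_KO_2 over 37 positions (-0.05 to 0.03) and -0.08 in CB45_KO_4 over 40 positions (-0.13 to -0.04). Neither can be set against a spread between replicates. No position passed 1.2-fold in either direction, 0 of 37 and 0 of 40. Of all positions, 28.0% were higher and 18.4% lower in CB45_KO_2, and 13.4% higher and 36.2% lower in CB45_KO_4. On other chromosomes counting error at a single position of median pileup was 0.79 and 0.82 in log2. That is wider than the limit, so positions there can pass it by counting error alone. On other chromosomes the medians were 0.05 and -0.10. As recorded, the median was -0.08 at 2 h and 0.00 at 4 h, again with 0 positions past 1.2-fold, against 11.0% higher and 43.2% lower at 2 h and 18.4% higher and 28.0% lower at 4 h. Whether the response to camptothecin differs between the genotypes was not tested.

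By code, knockout and parent libraries of the same treatment differed in opposite directions with and without camptothecin. Coverage in DMSO was lower in CB45_KO than in CCRF_WT, with a median log2 ratio of -0.26 over 39 positions (-0.35 to -0.21). There 19 of 39 positions were at least 1.2-fold lower, against 9.64% of all positions, and 0 were higher, against 47.6%. That count rests on the limit, since it was 39 at 1.1-fold (16.4% of all positions) and 0 at 1.3-fold (5.39%). At 2 h CB45_KO_2 was above CCRF_WT2 by 0.14 over 32 positions (0.05 to 0.18), and at 4 h CB45_KO_4 was above CCRF_WT4 by 0.10 over 34 positions (-0.03 to 0.20). At these times 0 positions were at least 1.2-fold higher, against 6.48% and 8.99% of all positions, and 0 were lower, against 75.7% and 79.5%. These counts rest on the limit too. At 1.1-fold, 16 of 32 positions were higher at 2 h, against 10.2% of all positions, and 3 of 34 at 4 h, against 11.6%. On other chromosomes counting error at a single position was 0.82, 0.71 and 0.70. The medians there were 0.24 in DMSO, -0.67 at 2 h and -1.23 at 4 h. Median pileups at linked mitochondrial summits and at linked summits elsewhere therefore differed in opposite directions in all 3 of these comparisons. In the record the comparison of CB45_KO with CCRF_WT is that at 4 h, CB45_KO_2 with CCRF_WT2 is that in DMSO, and CB45_KO_4 with CCRF_WT4 is that at 2 h.

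**Figure D4:**
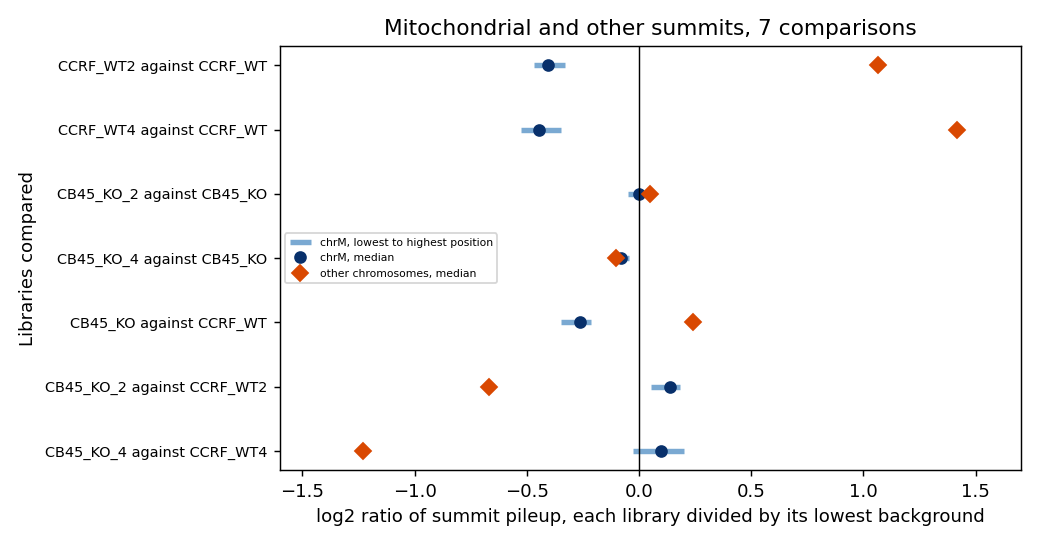
Median log2 ratio of summit pileup for 7 pairs of libraries (rows), each library divided by its lowest background, at mitochondrial positions (circles, with bars from the lowest to the highest position) and at positions on other chromosomes (diamonds). For CCRF_WT2 against CCRF_WT the mitochondrial median is -0.40 and the other 1.07, and the pairs of knockout libraries lie near 0 in both.

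Mitochondrial summaries of the 2 genotypes were also set side by side over 3 libraries each. These are 1 library per treatment, so each SD, here and for the shape of the coverage below, includes differences between treatments. The permutation test treats the libraries of different treatments as interchangeable. The two-sided exact permutation test of 3 against 3 cannot go below 0.1, so none of the 4 quantities tested could pass 0.05. The number of entries was 48.3 ± 0.58 in parent and 45.3 ± 1.5 in knockout libraries (SD, n = 3; exact permutation p = 0.1, adjusted 0.2). The covered length was 16431 ± 7.4 and 16442 ± 5.5 bases (SD, n = 3; exact permutation p = 0.1, adjusted 0.2). For both of these the 2 genotypes did not overlap, but by narrow margins. The nearest entry counts were 48 in CCRF_WT and CCRF_WT2 and 47 in CB45_KO_4. The nearest covered lengths were 16437 bases in CCRF_WT and 16438 in CB45_KO. The median fold was 1.56 ± 0.089 and 1.61 ± 0.054 (SD, n = 3; exact permutation p = 0.5, adjusted 0.667). The median pileup divided by the lowest background was 14911 ± 2608 and 14718 ± 495 (SD, n = 3; exact permutation p = 1, adjusted 1). The wide parent spread came from CCRF_WT at 17918, against 13546 in CCRF_WT2 and 13269 in CCRF_WT4. The knockout libraries were at 15045, 14960 and 14148. Without CCRF_WT the knockout mean was higher by 1310.

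The shape of the coverage was also compared, with each pileup divided by the median of its library over the 27 shared positions. Pearson's r over these positions was between 0.94 and 0.99 for pairs of libraries of the same genotype and between 0.91 and 0.98 for pairs of different genotype. All libraries share the sequence and so its base composition, and the values are descriptions. Relative pileup was higher in all knockout than in all parent libraries at 2 of 27 positions and lower at 6 of 27, against 4.10% and 4.98% of all positions held by 6 libraries, most of which have far lower pileups. The largest shortfall was at 2386 to 2398, with 0.878 ± 0.021 in parent and 0.823 ± 0.0052 in knockout libraries (SD, n = 3). At 10818 to 10841 the values were 1.04 ± 0.021 and 0.999 ± 0.0052. At 16152 to 16202 they were 1.08 ± 0.036 and 1.03 ± 0.021, with a gap of only 0.00087 between the lowest parent and the highest knockout library. Parent summits of that position lay at 16152, 16164 and 16154 and knockout summits at 16197, 16185 and 16202. Its values therefore compare different bases joined by chaining. At 8509 to 8517 the values were 0.890 ± 0.0087 and 0.863 ± 0.0060. Higher in the knockout were 15382 to 15404, with 1.13 ± 0.016 against 1.17 ± 0.0060, and 721 to 741, with 0.952 ± 0.028 against 0.986 ± 0.011 and a gap of 0.00061. Every one of these differences is smaller than 6% of the library's own median coverage.

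**Figure D5:**
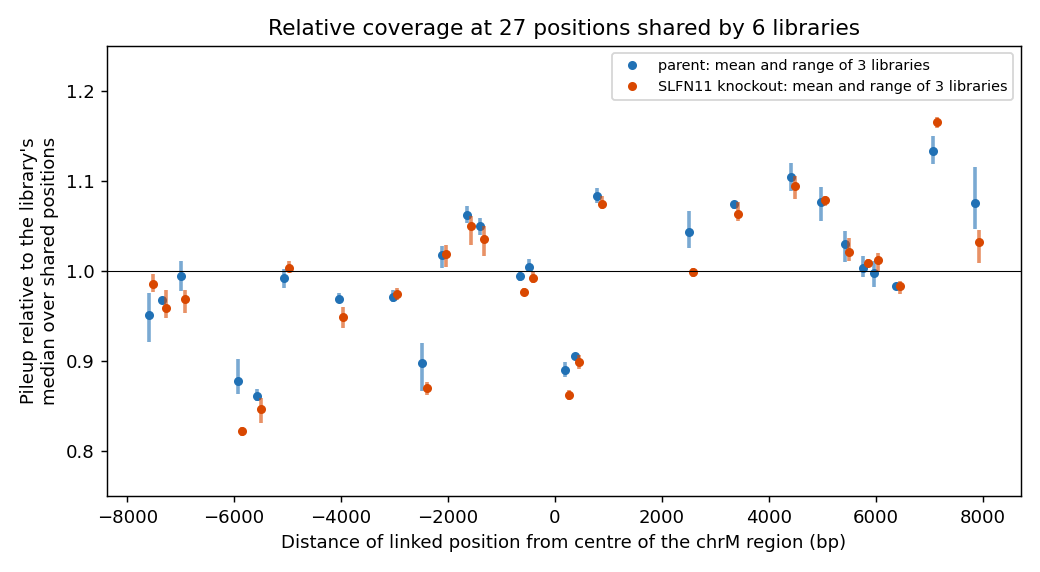
Pileup divided by the library's median over 27 shared positions, against distance in bp from the centre of the region. Points are means and bars the range of 3 libraries, and at 2386 to 2398 the knockout mean of 0.823 lies below the parent mean of 0.878 with no overlap.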

How the data were processed

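Peak lists of 6 libraries were used as deposited, 1 per library by the single code in its peak identifiers. Per the submitters' processing notes, MACS2 2.1.2, BWA 0.7.17, Picard 2.9.2, SAMtools 1.8, Trimmomatic 0.39 and Trim Galore 0.6.2 were used, with no roles stated, and the build was hg19. Settings (read shift, extension, duplicates, background) are not given in the sources used, and each changes pileup and fold on a small, deeply covered genome. The score deposited by the authors is 10 times the -log10 q, cut to a whole number, in at least 99.97% of entries, and was not used. The fold deposited by the authors is a ratio of summit over local background; it is set side by side across lists as a description and in the genotype test, and levels were compared through pileups. Each summit's -log10 p and its -log10 q, as deposited, are the caller's own, and lists end at a q of 0.01.

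Here, pileup and background were recovered from fold, taken as (pileup + 1)/(background + 1), and the Poisson tail, summed on the log scale. At least 99.95% of the pileups on other chromosomes came out within 0.02 of a whole number. Recovery and linking were tested on simulated data. Entries named are the highest by fold and by pileup in each library, the 5 shared positions with the highest lowest fold, and every position of 1 genotype only; of these the text gives the leading ones. Other chromosomes include X and Y. Alternatives were the recorded placement, a -log10 q of at least 5, merged regions, other scalings, link distances of 10, 50 and 100 bp, fold without pseudocount, and each library left out. Python 3.11.15, numpy 2.4.6, scipy 1.17.1 and pandas 2.3.3 were used. Entries, lists and rules were chosen with earlier results of these data known. Total read numbers were not used here; intervals cover counting error only, and p-values only the spread between these libraries.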

Additional observations from a re-analysis of the deposited data

How the results depend on the processing

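The direction of the treatment comparisons rests on which list belongs to which sample. With the recorded placement the median log2 ratios to DMSO were -0.032 and 0.40 at 2 h and 4 h in parent cells, and -0.083 and -0.0023 in the knockout. The ratios of knockout to parent were 0.14 in DMSO, 0.10 at 2 h and -0.26 at 4 h. That placement also moves the median fold, in the order DMSO, 2 h and 4 h, to 1.56, 1.47 and 1.65 (parent) or 1.56, 1.67 and 1.59 (knockout), and the median pileup to 17475, 16692 and 21904 in parent and to 20474 and 19253 in knockout DMSO and 2 h. Divided by the median pileup of the other chromosomes, the log2 ratios by code were -0.91 and -1.19 for the parent, -0.031 and 0.021 for the knockout, and knockout to parent was 0.59 at 2 h and 0.92 at 4 h. Without scaling they were -0.33, -0.40, 0.11 and 0.021, and for knockout to parent -0.21, 0.22 and 0.21. The directions in knockout cells thus turn with the scaling, and those in parent cells do not. Merging leaves 1 region per library, whose highest folds are 2.82, 2.62, 2.44, 2.70, 2.69 and 2.84. Only summits whose window lies inside the region gave median pileups of 21601 in CCRF_WT, 18588 in CB45_KO and 20150 in CB45_KO_2, an alternative added after seeing the data, as were other fold limits. Linking at 10 bp left 17 positions shared by all 6 libraries. A -log10 q of at least 5 removed no entry. Leaving out each library gave 25 to 30 shared positions. The knockout minus parent differences then ranged from -3.83 to -2.33 entries, 6.17 to 13.2 bases, 0.000913 to 0.0903 in median fold and -1014 to 1310 in scaled pileup, which turned to 1310 without CCRF_WT and to 91.7 without CB45_KO_4. With libraries paired by treatment as the replicate block, added after seeing the data, the mean differences are the same by construction, -3 entries, 10.3 bases, 0.046 in median fold and -193 in scaled pileup. The exact two-sided sign-flip permutation p over 3 pairs, which cannot go below 0.25, was 0.25, 0.25, 1 and 1. Scaled pileup was lower by code in DMSO only, with pair differences of -2873, 1414 and 880.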

Other observations

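A cluster of entries on chromosome 1 had the highest backgrounds outside the mitochondrial genome, while the highest summit pileups of the other chromosomes, 6892 to 7909 per library, lay outside it. This stretch of hg19 is known to carry a long nuclear copy of mitochondrial sequence, and it was picked out after the values were seen. Between 564496 and 570274 the lists held 13 to 15 entries per library. Their median pileup was 3941 in CCRF_WT, 3162 in CCRF_WT2, 3161 in CCRF_WT4, 3268 in CB45_KO, 3644 in CB45_KO_2 and 3425 in CB45_KO_4. These are 17.1 to 18.9% of the mitochondrial median of the same library, a narrow range over libraries whose mitochondrial medians run from 16692 to 21904. The highest summit of the cluster lay between 565135 and 565140 in all 6 libraries, with pileups from 5128 in CCRF_WT2 to 6265 in CCRF_WT. Backgrounds above 1000 outside the mitochondrial genome occurred in 10 to 15 entries per list, all of them in this cluster, and the highest background elsewhere was between 335 and 392. The median fold of the cluster was between 2.93 and 3.35, below the medians of 5.40 to 6.12 over all other chromosomes. How reads that match both places were assigned is not given in the sources used here, and the sequences were not compared.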
